A study of Rattus norvegicus with 18 samples.

Results

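Endothelial genes were followed through RNA of CD11b/c-sorted synovial cells to describe how much vessel RNA the sorted libraries carried and whether it differed between osteoarthritis (OA) and sham surgery. The 10 genes were chosen by symbol as markers of the endothelium: Pecam1, Cdh5, Kdr, Flt1, Tek, Tie1, Vwf, Emcn, Eng and Esam. Of these, 9 had a row among the 30643 genes of each of the 2 tables, and Pecam1, the adhesion molecule CD31, was not analysed here. Knee synovium came from wild type male Sprague Dawley rats, operated on at 12 weeks of age, with the anterior cruciate ligament cut and the medial meniscus destabilized (OA) or with the joint capsule opened only (sham). Tissue was digested and the CD11b/c+ cells, labelled as macrophages, were enriched on magnetic columns and lysed for total RNA sequencing. At 4 weeks after surgery there were 5 OA and 5 sham libraries, each a pool of 4 rats. At 12 weeks there were 4 OA and 4 sham libraries, each a pool of 3 rats. A library therefore averages several joints, and differences between single rats cannot be seen. Both time points share the strain, sex, age at surgery, tissue and sort, and no group was left unoperated.

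Blood vessels are lined by endothelial cells, which hold to each other through VE-cadherin (Cdh5) junctions and answer to vascular endothelial growth factors through the receptor tyrosine kinases VEGFR2 (Kdr) and VEGFR1 (Flt1). Angiopoietins act through Tie2 (Tek), with Tie1 as its partner receptor, and endoglin (Eng) is a co-receptor for bone morphogenetic proteins of the blood stream. The synovium is a vascular tissue, with capillaries and venules under the lining layer. Most of these genes are strongly enriched in endothelium, although Eng and Flt1 are also expressed by monocytes and macrophages, Tek by a subset of monocytes, and Vwf by megakaryocytes and platelets.

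RefSeq promoters of the rat genome build GRCr8, each running from 250 bases before to 50 bases after the gene's start, were matched by symbol for 5 of the 9 genes (Kdr, Flt1, Tie1, Emcn and Eng). ETS transcription factors, among them the endothelial factor Erg, bind a GGAA core. The letters GGAA were searched on both strands, so that TTCC on the printed strand also counts, and both are in capitals in the sequences. Of all 33469 promoters of this length, 95.8% held at least 1 core, with a median of 3, so most promoters hold one. The promoters of 3 genes are shown, those of Kdr, Tie1 and Emcn. Among the 9 genes, and averaged over the time points, the levels of Kdr followed Cdh5 most closely and those of Tie1 least. Emcn held the most cores of the 5 promoters. Kdr (chr14:32571813-32572112, plus strand) held 5 cores, and 29.2% of all promoters held as many or more. Tie1 (chr5:137304932-137305231, minus strand) held 4, and 46.8% held as many or more. Emcn (chr2:228564289-228564588, plus strand) held 8, a number reached by 3.90% of promoters. Flt1 and Eng held 3 each, and the Flt1 window also held 1 cyclic AMP response element (TGACGTCA, both strands, in 1.83% of promoters) and 1 TATAAA box (both strands, in 14.2%). These letter matches describe the windows and do not show binding.
Kdr: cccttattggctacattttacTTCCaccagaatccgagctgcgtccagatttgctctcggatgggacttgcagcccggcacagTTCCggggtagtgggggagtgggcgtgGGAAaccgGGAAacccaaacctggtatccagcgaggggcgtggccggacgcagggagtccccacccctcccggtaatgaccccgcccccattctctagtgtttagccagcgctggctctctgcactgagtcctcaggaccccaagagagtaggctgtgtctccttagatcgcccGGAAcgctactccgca
Tie1: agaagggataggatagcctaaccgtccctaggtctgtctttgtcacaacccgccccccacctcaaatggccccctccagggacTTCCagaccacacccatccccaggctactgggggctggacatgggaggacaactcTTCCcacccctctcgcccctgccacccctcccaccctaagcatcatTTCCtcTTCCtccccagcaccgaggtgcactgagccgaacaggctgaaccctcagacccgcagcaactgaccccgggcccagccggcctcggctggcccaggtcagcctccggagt
Emcn: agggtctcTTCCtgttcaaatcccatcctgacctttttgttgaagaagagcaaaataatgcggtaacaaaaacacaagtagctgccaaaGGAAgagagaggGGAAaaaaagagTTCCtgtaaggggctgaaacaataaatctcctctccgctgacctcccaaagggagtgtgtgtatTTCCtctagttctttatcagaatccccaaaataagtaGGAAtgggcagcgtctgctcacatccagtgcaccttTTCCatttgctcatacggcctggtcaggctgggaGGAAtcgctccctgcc

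Levels are given in normalized reads, that is reads per gene divided by a size factor for the library, set within each time point. Longer transcripts collect more reads and no transcript lengths were used, so the genes were not ranked against each other by level. The libraries held 4662344 (4 weeks, sham 3) to 18080503 reads in genes, and 3 reads, the limit that a count of 0 allows, correspond to 2.06 to 6.96 normalized reads at 4 weeks and 2.27 to 3.82 at 12 weeks. Every one of the 9 endothelial genes lay far above that limit in every library, with at least 766 reads. Together they took 0.374% of the reads of OA library 3 (95% Wilson interval 0.371% to 0.377%) to 0.527% of sham library 3 (0.520% to 0.533%) at 4 weeks. At 12 weeks their share ran from 0.324% in OA library 4 (0.321% to 0.327%) to 0.507% in sham library 3 (0.503% to 0.511%). These intervals cover counting error only and are narrow beside the differences between libraries. The labelled cell type was present, with all 14 macrophage markers measured, among them Csf1r, the receptor for macrophage colony stimulating factor, at 24498 ± 2341 in OA and 22731 ± 1768 in sham (mean ± SD) at 4 weeks. Summed over the 9 genes and divided by the summed macrophage markers, the endothelial level was 0.256 to 0.424 in OA and 0.337 to 0.376 in sham at 4 weeks, and 0.197 to 0.283 in OA and 0.227 to 0.446 in sham at 12 weeks. One library stood apart in these levels: sham 3 at 12 weeks held the highest level of all 9 genes, and values that it moves most are also given without it. It was singled out by these same levels, so leaving it out could only move the 9 fold changes upward. Values without it describe its weight and are not a separate test. In such bulk libraries fewer endothelial cells and less RNA per endothelial cell cannot be told apart.

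At 4 weeks none of the endothelial genes passed the test for a difference between OA and sham. In limma across 14861 genes, 0 genes passed an adjusted p under 0.05 with a log2 fold change of at least 0.5 (0% of genes in either direction), so 0 of the 9 endothelial genes did. At an unadjusted p under 0.05, 4.1% of genes were higher and 3.82% lower in OA (609 and 568 genes), against 0 of the 9. edgeR called 0 genes and DESeq2 27 (0.106% higher, 0.053% lower), none of them among the 9. The fold change lay under 0 for 8 of the 9 and above 0 for Kdr, where 42.9% of all genes lay under and 57.1% above 0, and their median log2 fold change was -0.090 beside 0.028 over all genes. With TMM scaling 7 of the 9 and 32.1% of all genes lay under 0, and with edgeR 9 of the 9 and 51.4%. TMM also moved the genes at an unadjusted p under 0.05 to 855 higher and 460 lower, and edgeR to 457 and 745. With DESeq2, which took in 29631 genes, 62% of all genes lay under 0, with 649 higher and 2040 lower at an unadjusted p under 0.05, and the median was -0.086 over the 9 genes and -0.12 over all genes. In limma on every gene with a read the medians were -0.090 and -0.085, with 60.7% of all genes under 0. Without OA library 5 the median over the 9 genes was -0.16. With single libraries left out, fold changes ran from -0.22 to -0.088 for Cdh5, -0.29 to -0.12 for Emcn, -0.25 to -0.070 for Vwf, -0.18 to -0.079 for Esam, -0.16 to -0.019 for Tek, -0.15 to -0.021 for Eng and -0.11 to -0.024 for Flt1. The lower end came without OA 5 for each of these but Emcn, where it came without sham 4, and the upper end came without OA 3 for Cdh5, Vwf, Eng and Flt1, without OA 1 for Esam and Tek, and without sham 3 for Emcn. The groups overlapped for every one of the 9 genes, while 1.18% of all genes were higher and 0.693% lower without overlap.

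At 12 weeks the endothelial genes lay lower in OA for 8 of 9, with Tie1 as the exception, by at most 0.35 on the log2 scale, and none passed the adjusted threshold. limma called 0 of 14666 genes (0% in either direction) and 0 of the 9. Unadjusted p-values under 0.05 were found for 5.75% of genes with higher and 6.62% with lower values in OA (843 and 971 genes), and among the 9 for Cdh5 alone. edgeR called 0 genes and DESeq2 98 (0.567% higher, 0.128% lower), again with 0 of the 9. Among all genes 52.5% had a fold change under 0 and 47.5% above, and the median log2 fold change was -0.21 over the 9 genes and -0.011 over all genes. The groups overlapped for each of the 9, against 2.85% of genes higher and 3.44% lower without overlap. Sham library 3 bore on this difference. Without it the median over the 9 genes was -0.083, 7 of the 9 lay under 0, and limma called 81 genes and 0 of the 9. The log2 fold changes were then -0.29 for Cdh5, -0.19 for Kdr, -0.16 for Emcn, -0.13 for Tek, -0.083 for Esam, -0.056 for Eng, -0.013 for Flt1, 0.095 for Tie1 and 0.098 for Vwf. Without OA library 4, the lowest for most of the genes, the median was -0.14.

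**Figure D1:**
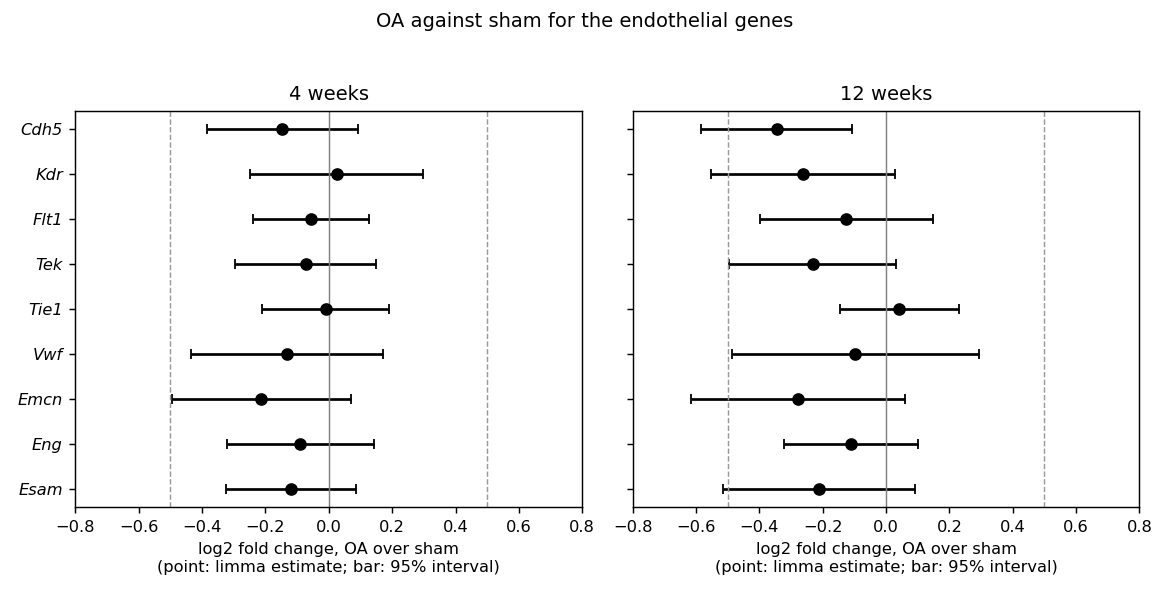
The log2 fold change of OA over sham (x axis) is plotted for each of the 9 endothelial genes (y axis) at 4 and 12 weeks, as the limma estimate (point) with its 95% interval (bar), dashed lines marking the fold minimum of 0.5. At 12 weeks the interval of Cdh5 (-0.58 to -0.11) is the one that lies clear of 0, before adjustment over all genes, and at 4 weeks every interval crosses 0.

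Cdh5 (ENSRNOG00000013324) encodes VE-cadherin, the adhesion protein of endothelial junctions. At 4 weeks the Cdh5 level was 5612, 5528, 5052, 6546 and 7314 normalized reads in OA libraries 1 to 5 and 5870.4, 6352, 7378, 6479 and 7007 in sham libraries 1 to 5. Of the OA libraries, 3 were below every sham library, while OA 5 was near the top of the sham range. The means were 6010.5 ± 908 (SD, n = 5) and 6617 ± 587 (SD, n = 5), a log2 fold change of -0.15 (95% interval -0.38 to 0.091; limma adjusted p = 0.731; exact permutation p = 0.214). At 12 weeks Cdh5 had 5173, 5099, 5876 and 4447 normalized reads in OA libraries 1 to 4 against 6770.0, 6598, 7316 and 5499 in sham libraries 1 to 4. All 4 OA libraries were below the sham median and 3 of them below the lowest sham library, sham 4, which was exceeded by OA 3. Means of 5149 ± 584 (SD, n = 4) and 6546 ± 762 (SD, n = 4) gave a log2 fold change of -0.35 (95% interval -0.58 to -0.11), with a limma p of 0.00886 that was 0.308 after adjustment over all genes. The adjusted p was 0.322 in edgeR and 0.117 in DESeq2, and the exact two-sided permutation p was 0.0571, where 4 against 4 libraries can give no p below 0.0286 (0.00794 for 5 against 5). The difference kept its sign when any single library was left out, between -0.43 and -0.28. Cdh5 thus had the largest fold change of the 9 genes at 12 weeks, and one that did not pass the test across all genes.

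Esam (ENSRNOG00000033217), an immunoglobulin-type adhesion molecule of endothelial tight junctions, showed smaller differences. Its level at 4 weeks was 2709, 2934, 2799, 3168 and 3636 normalized reads in OA and 3205, 3453, 3676, 3002 and 3174 in sham, in the order of the libraries. OA 5 stood within the sham range and 3 OA libraries under it. The log2 fold change was -0.12 (-0.32 to 0.085; limma adjusted p = 0.746; exact permutation p = 0.214), from 3049 ± 371 (SD, n = 5) and 3302 ± 264 (SD, n = 5). At 12 weeks it had 3383, 3198, 3739.6 and 2797 in OA and 3286, 3259, 4926 and 3847 in sham, with sham 3 standing above all other libraries. The fold change of -0.21 (-0.51 to 0.092; limma adjusted p = 0.535; exact permutation p = 0.286) compares 3279 ± 392 (SD, n = 4) with 3829.5 ± 779.8 (SD, n = 4), and it was -0.083 without sham 3.

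Kdr (ENSRNOG00000046829), the main signalling receptor for VEGF-A in vessels, had 1906, 1811, 1663, 2225 and 2435 normalized reads in the 5 OA libraries and 1752, 1887, 1778, 1916 and 2533 in the 5 sham libraries at 4 weeks. Sham 5 was the highest library and the other 4 sham libraries lay within the OA range. OA and sham means of 2008 ± 315 (SD, n = 5) and 1973 ± 321 (SD, n = 5) differed by 0.025 on the log2 scale (-0.25 to 0.30; limma adjusted p = 0.962; exact permutation p = 0.889). At 12 weeks the values were 2170.2, 2023, 2565 and 1886 in OA and 2863, 2532, 2994 and 2029 in sham. Sham 4 lay among the OA libraries, and OA 3 between sham 2 and sham 1. The log2 fold change was -0.26 (-0.55 to 0.027; limma adjusted p = 0.431; exact permutation p = 0.171), from means of 2161 ± 293 (SD, n = 4) and 2605 ± 430.0 (SD, n = 4).

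Flt1 (ENSRNOG00000000940), a VEGF receptor that binds VEGF-A tightly and signals weakly, differed less. At 4 weeks it had 5109.6, 5313, 5009.9, 5739 and 6285 normalized reads in OA and 5642, 6075, 5375, 5383 and 6004 in sham, a log2 fold change of -0.056 (-0.24 to 0.13; limma adjusted p = 0.863). Values of 5346, 5202, 6303 and 4695 in OA and 5549.6, 5342, 7382 and 5323 in sham at 12 weeks gave -0.13 (-0.40 to 0.15; limma adjusted p = 0.684), where 3 sham libraries were nearly equal and sham 3 stood far above them. Without sham 3 the Flt1 fold change was -0.013. The ratio of Kdr to Flt1 reads within a library, free of library scaling, was 0.332 to 0.388 in OA and 0.311 to 0.422 in sham at 4 weeks, and 0.389 to 0.407 and 0.381 to 0.516 at 12 weeks, so the groups overlapped at both.

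Tek (ENSRNOG00000008587) encodes Tie2, the angiopoietin receptor that steadies vessels. At 4 weeks it had 5530.5, 5886, 6357, 6556 and 8067 normalized reads in OA and 6774, 6946, 7026, 6144 and 6943 in sham. The OA libraries spread over a wider range than the sham libraries, with OA 5 above and OA 1 and 2 below all of them. Group means of 6479 ± 974 (SD, n = 5) and 6766 ± 360.0 (SD, n = 5) differed by -0.073 (-0.29 to 0.15; limma adjusted p = 0.850; exact permutation p = 0.50). At 12 weeks Tek had 6463, 5989.8, 6724 and 5301 in OA and 7189, 6503, 8898 and 6307 in sham, with a log2 fold change of -0.23 (-0.49 to 0.031; limma adjusted p = 0.439; exact permutation p = 0.143). OA 1 and OA 3 lay within the sham range and OA 2 and OA 4 below it. Without sham 3 the Tek fold change was -0.13.

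Tie1 (ENSRNOG00000020173), the partner receptor of Tie2, had the smallest range over the libraries of 12 weeks. OA libraries at 4 weeks had 6139, 6204, 6111, 6641 and 6618 normalized reads and sham libraries 5786, 6128, 7759, 5776 and 6671, so that every OA library lay inside the sham range. This amounted to a log2 fold change of -0.010 (-0.21 to 0.19; limma adjusted p = 0.982), and one of 0.041 with TMM scaling. At 12 weeks Tie1 had 7316, 7226, 6762 and 6601 in OA and 6169, 6252, 7558 and 7204 in sham, means of 6976 ± 349 (SD, n = 4) and 6796 ± 692 (SD, n = 4). Its log2 fold change of 0.042 (-0.15 to 0.23; limma adjusted p = 0.851; exact permutation p = 0.571) was the only one above 0 among the 9 genes, and without sham 1 it was -0.0027. Within libraries the ratio of Tie1 to Cdh5 reads was 0.905 to 1.21 in OA and 0.891 to 1.05 in sham at 4 weeks. At 12 weeks this ratio was 1.15 to 1.48 in OA (median 1.42) and 0.911 to 1.31 in sham (median 0.990), with sham 4 in the OA range.

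Eng (ENSRNOG00000050190), the co-receptor endoglin, had 6884, 6995, 5833, 7604 and 8295 normalized reads in OA and 6686, 7407, 7144, 7949 and 8615 in sham at 4 weeks. OA 3 was the lowest and sham 5 the highest library. Endoglin had a log2 fold change of -0.090 (-0.32 to 0.14; limma adjusted p = 0.822; exact permutation p = 0.437). At 12 weeks the values were 7448, 7170.4, 8065 and 6368 in OA and 7432, 7094, 8769 and 8076 in sham, and the fold change -0.11 (-0.32 to 0.10; limma adjusted p = 0.636; exact permutation p = 0.371). Sham 3 was the highest and OA 4 the lowest library, and the Eng fold change was -0.056 without the first and -0.050 without the second.

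Emcn (ENSRNOG00000022910) encodes endomucin, a mucin-like surface protein of capillaries and veins. Its level at 4 weeks was 2147, 2216, 2122, 2633 and 2795 normalized reads in OA and 2576, 3021, 3574, 2219 and 2522 in sham. OA 1, 2 and 3 lay together just below the lowest sham library, and sham 3 stood highest. The log2 fold change of -0.21 (-0.50 to 0.069; limma adjusted p = 0.687; exact permutation p = 0.183) was the largest of the 9 at this time and was -0.12 without sham 3, from 2383 ± 309.6 (SD, n = 5) and 2782 ± 527 (SD, n = 5). At 12 weeks Emcn had 2627, 2062, 2589 and 1808 in OA and 2275, 2697, 3522 and 2544 in sham, spanning a factor of 1.95 from the lowest to the highest library. Means of 2272 ± 403 (SD, n = 4) and 2759.6 ± 537 (SD, n = 4) differed by -0.28 (-0.62 to 0.058; limma adjusted p = 0.466; exact permutation p = 0.20), by -0.16 without sham 3, the highest library, and by -0.18 without OA 4, the lowest.

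Vwf (ENSRNOG00000019689), the clotting glycoprotein stored by endothelial cells and platelets, had 9454, 9677, 9319.9, 12803 and 15186 normalized reads in OA and 10812, 12043, 13278, 12783 and 11864 in sham at 4 weeks. OA 1 to 3 lay below and OA 5 above all sham libraries. OA over sham gave a log2 fold change of -0.13 (-0.44 to 0.17; limma adjusted p = 0.803; exact permutation p = 0.413). At 12 weeks it had 13270.1, 11430.1, 13311 and 10701 in OA and 11763, 11638, 19437 and 10626 in sham. Every OA library lay inside the sham range, and sham 3 was far above all others. The fold change of -0.10 (-0.49 to 0.29; limma adjusted p = 0.834; exact permutation p = 0.800) was 0.098 without sham 3.

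**Figure D2:**
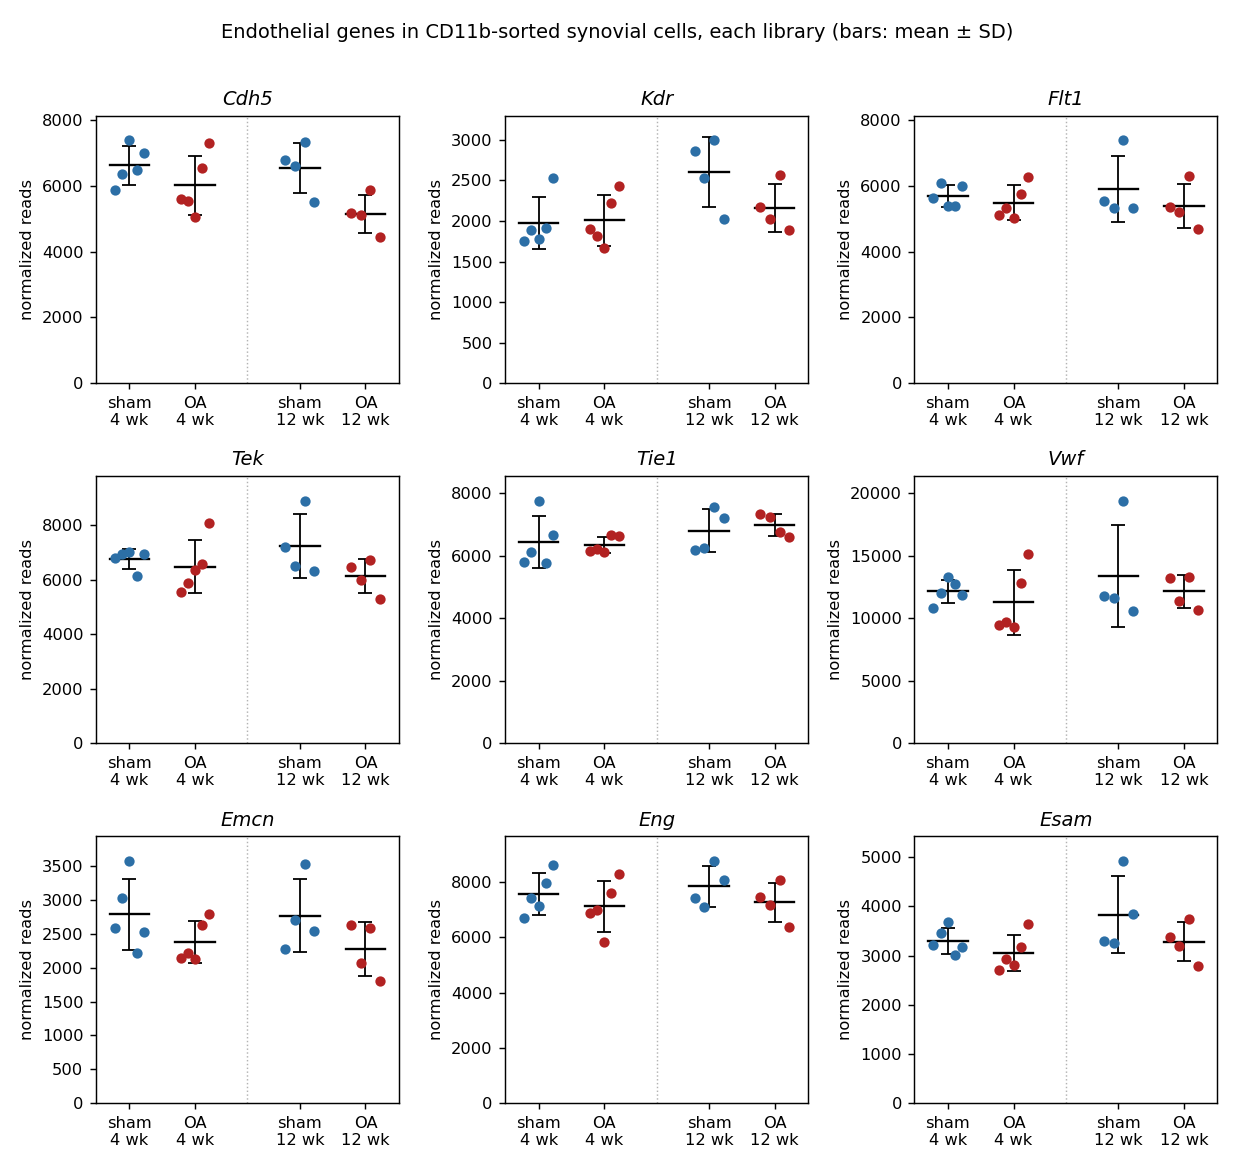
Normalized reads (y axis, from 0) are plotted for each of the 9 endothelial genes in every library of the 4 groups (x axis, sham in blue and OA in red), with bars for the mean ± SD. The OA and sham points overlap for every gene at both time points, and 1 sham library at 12 weeks, sham 3, is the highest for all 9.

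Whether OA against sham differed between the time points was tested in 1 model of all 18 libraries, on log2 CPM. No gene passed the adjusted threshold in limma (0% of 14732 genes in either direction), and none did in edgeR or DESeq2. At an unadjusted p under 0.05 in limma, 2.38% of genes had a higher fold change of OA over sham at 12 weeks than at 4 weeks. A lower one was found for 0.808% (350 and 119 genes), with 0 of the 9 endothelial genes in either direction. Among the 9 genes the difference in this fold change, 12 weeks minus 4 weeks, was largest for Kdr, at -0.25 (95% interval -0.65 to 0.14, adjusted p = 0.956). For Cdh5 it was -0.17 (95% interval -0.51 to 0.18, adjusted p = 0.956). Tie1 had a positive difference, 0.085 (95% interval -0.21 to 0.37, adjusted p = 0.961). Tek had a difference of -0.13 (95% interval -0.46 to 0.21, adjusted p = 0.956) and Vwf of 0.068 (95% interval -0.44 to 0.57, adjusted p = 0.982). Flt1, Emcn, Eng and Esam had differences between -0.059 and 0.012. Each of the 9 intervals included 0. Levels at 4 and 12 weeks were normalized separately and were not compared directly.

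The libraries at the ends of the range were often the same ones across genes. At 12 weeks sham 3 held the highest value of all 9 genes, and OA 4 the lowest of 7, the lowest of Tie1 being in sham 1 and of Vwf in sham 4. At 4 weeks OA 3 was lowest for 6 genes and OA 1 for Tek and Esam, while OA 5 was highest for Flt1, Tek and Vwf, sham 3 for Cdh5, Tie1, Emcn and Esam, and sham 5 for Kdr and Eng. From the lowest to the highest library a gene spanned a factor of 1.25 to 1.68 at 4 weeks and of 1.23 (Tie1) to 1.95 (Emcn) at 12 weeks. The median spread within groups (SD on the log2 scale) was 0.167 over the 9 genes at 4 weeks, beside 0.177 over 1195 genes within their range of mean levels, and 0.203 beside 0.128 over 1164 such genes at 12 weeks. Summed levels of other marker lists also differed in such libraries. In sham 3 at 12 weeks the macrophage markers summed to 158688 normalized reads, the lowest of the 8 libraries, while the mural cell markers, at 29457, and the fibroblast markers, at 100954, were the highest of the sham group. Their part in the endothelial levels was not tested.

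**Figure D3:**
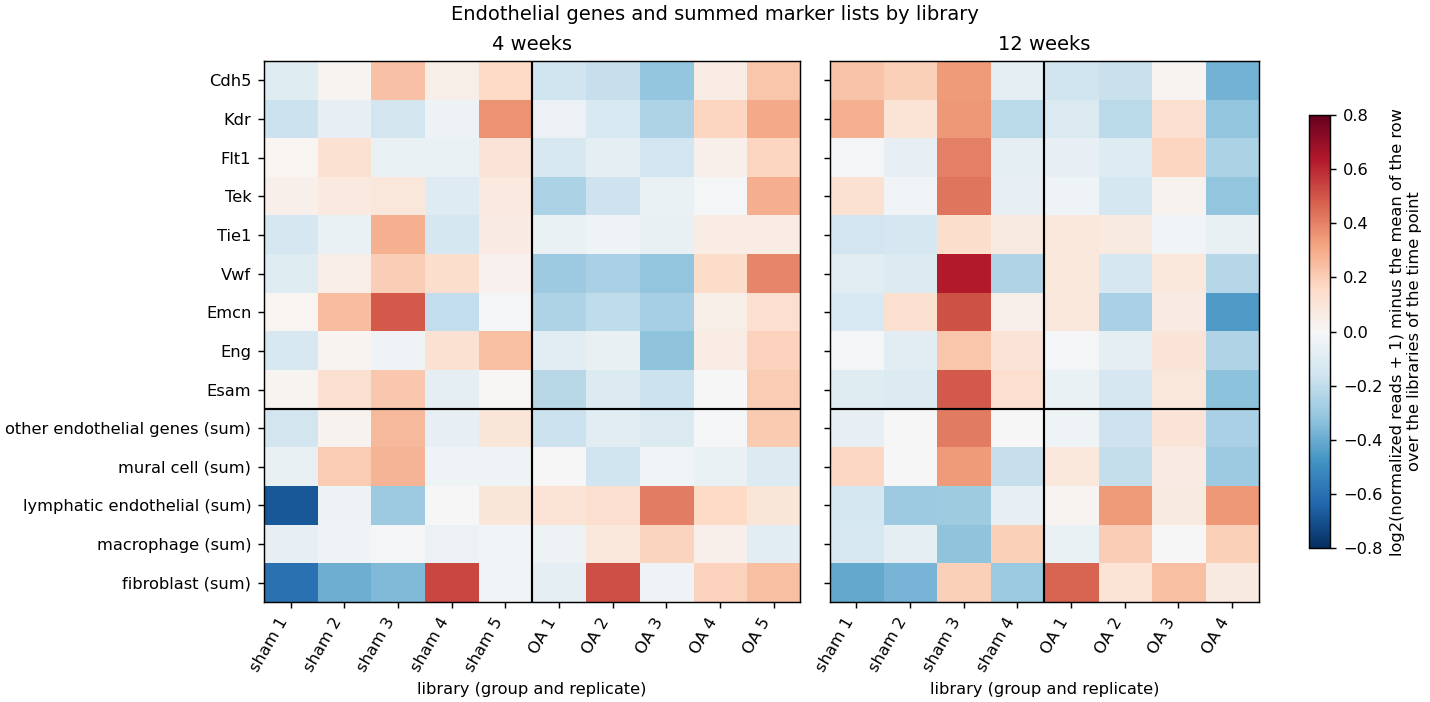
Colour gives log2(normalized reads + 1) minus the mean of the row over the libraries of the time point, for the 9 endothelial genes and the summed marker lists (rows) in each library (columns, sham then OA). Sham 3 at 12 weeks is the warmest column of the endothelial rows, with a macrophage sum of 158688 normalized reads, the lowest at that time.

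Genes whose level followed that of Cdh5 within groups were ranked by Pearson's r on log2(normalized reads + 1), each library taken minus its group mean, averaged over the 10 libraries of 4 weeks and the 8 of 12 weeks. These r are a description over libraries that share a kind of sort and differ in depth, and no p is given. Of 14419 genes, the 10 most like Cdh5 were Arhgef7 (mean r 0.90), Actn4, Arhgef28, Dll4, Scmh1, Ablim3, Parva, Btbd3, Mmp15 and Arhgef10 (0.87). Dll4 is the Notch ligand of sprouting and arterial endothelium, Actn4 and Parva act at the actin cytoskeleton and focal adhesions, and the 3 Arhgef genes encode exchange factors for small GTPases. Among the other 8 endothelial genes Kdr ranked 17th (r 0.74 at 4 weeks and 0.96 at 12 weeks), Vwf 41st, Tek 107th, Flt1 171st, Eng 349th, Emcn 355th and Esam 399th. Tie1 came at rank 2279, with r of 0.69 at 4 weeks and 0.03 at 12 weeks. Over the 7 libraries of 12 weeks other than sham 3, r with Cdh5 was 0.95 for Kdr, 0.87 for Tek, 0.85 for Vwf, 0.82 for Flt1, 0.54 for Emcn, 0.41 for Eng, 0.32 for Esam and -0.41 for Tie1. The median rank was 260 over these 8 genes, 236.5 over 20 other endothelial genes, 1474 over 12 mural cell genes and 13045 over 14 macrophage genes, whose median r was -0.49. These averages join unlike time points. Each mural cell gene had a higher r at 12 weeks than at 4 weeks, among them Rgs5 (0.91 and 0.15) and Myh11 (0.84 and -0.28). Macrophage genes had a lower r at 12 weeks, among them C1qa (-0.83 and 0.13), except Mertk, Cd68 and Fcer1g. The r of 12 weeks include sham 3, and none is given without it for these lists.

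The remaining endothelial genes were described through a list of 22, of which 20 were found and tested (not Cldn5 and Ackr1). Neither time point gave a call in limma. At an unadjusted p under 0.05 the list had 0 genes at 4 weeks and 6 lower and 0 higher at 12 weeks, where 6.62% of all genes were lower. The median log2 fold change was -0.057 at 4 weeks and -0.19 at 12 weeks, beside 0.028 and -0.011 over all genes, and 15 and 17 of the 20 lay under 0. Without sham 3 the 12-week median was -0.086, with 15 of the 20 under 0 and 3 lower at an unadjusted p under 0.05, beside 6.47% of all genes. Ptprb, the endothelial phosphatase that acts on Tie2 and VE-cadherin, had a level at 12 weeks of 9680.1 ± 883 in OA and 11120.4 ± 2029 in sham (normalized reads, mean ± SD, n = 4 each), a log2 fold change of -0.19 (limma adjusted p = 0.539). Plvap, a protein of endothelial fenestrae, had 8949 ± 1507 in OA and 10408 ± 2604 in sham and -0.20 (limma adjusted p = 0.638). Erg, an ETS factor that maintains endothelial identity, had 1249 ± 188 in OA and 1553 ± 125 in sham (-0.32; limma adjusted p = 0.325), and Ushbp1 1155 ± 209 in OA and 1520.2 ± 226 in sham (-0.41; limma adjusted p = 0.340). For these last 2 genes the OA and sham libraries did not overlap at 12 weeks, where 3.44% of all genes were lower without overlap. Rasip1, which serves vessel lumen formation, and Myct1 had log2 fold changes of -0.35 (limma adjusted p = 0.349) and -0.28 (0.358).

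Ligands, partner receptors and signal carriers of the same pathways made up a list of 24 genes, of which 22 were tested. None was called in limma at either time. At 4 weeks 1 gene, Angpt2, was lower at an unadjusted p under 0.05, where 3.82% of all genes were. At 12 weeks 5 had such a p, all lower in OA, where 6.62% of all genes were lower. The list's median log2 fold change was 0.014 at 4 weeks and 0.0049 at 12 weeks. Without sham 3 it was 0.046 at 12 weeks, with 1 gene lower at an unadjusted p under 0.05, beside 6.47% of all genes. Angpt2, the angiopoietin that opposes Tie2 signalling in many settings, had 1037 ± 104 in OA and 1374 ± 282 in sham at 4 weeks and 1233 ± 239 in OA and 1602 ± 127 in sham at 12 weeks, log2 fold changes of -0.39 (limma adjusted p = 0.564) and -0.39 (0.312). Acvrl1, the type I receptor that works with endoglin, had -0.24 at 12 weeks (limma adjusted p = 0.360), and Smad1, which carries its signal, -0.27 (0.370). Plcg1, the phospholipase downstream of Kdr, had -0.33 (0.354) at 12 weeks with no overlap between groups, and 0.0042 at 4 weeks. It was the 1 gene of the list without overlap at 12 weeks, and a different gene was at 4 weeks. Over all genes, 3.44% at 12 weeks and 0.693% at 4 weeks were lower without overlap. Ctnna1 and Ctnnb1, catenins of cadherin junctions, had the most reads of the list, with log2 fold changes of 0.059 and 0.047 at 12 weeks. They are expressed in many cell types.

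Genes used as markers of lymphatic endothelium made up a list of 7. They summed to 10859 to 13479 normalized reads in OA and 6341 to 10857 in sham at 4 weeks. At 12 weeks they summed to 16192 to 20314 in OA and 13026 to 15255 in sham. The sums did not overlap at either time, but at 4 weeks the lowest OA and highest sham sums were nearly equal. Taken singly, 0 of the 7 genes were without overlap at either time. Over all genes, 1.18% at 4 weeks and 2.85% at 12 weeks were higher in OA without overlap. At an unadjusted p under 0.05, 3 of the 7 were higher at 4 weeks and 1 at 12 weeks, where 4.1% and 5.75% of all genes were higher. The median log2 fold changes of the list were 0.29 and 0.32. Without sham 3 the 12-week median of the list was 0.55, with none of the 7 called. Lyve1 dominated this sum. It marks lymphatic vessels but also a class of tissue macrophages, so the sum does not measure lymphatic endothelium alone. Lyve1 had 13229 ± 2104 in OA and 9243 ± 1577 in sham at 12 weeks (0.52; limma adjusted p = 0.278), where DESeq2 gave an adjusted p of 0.0499. Prox1, the defining transcription factor of lymphatic endothelium, had 92.1 ± 14.9 in OA and 85.4 ± 18.1 in sham at 4 weeks and 102 ± 29.9 in OA and 85.8 ± 36.3 in sham at 12 weeks. Mmrn1 and Ccl21 had log2 fold changes of 0.60 and 0.44 at 4 weeks and 0.42 and 0.32 at 12 weeks, and Pdpn 0.068 and 0.095. limma called none of these genes. Flt4, the receptor for VEGF-C, is on this list and on that of signalling genes.

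Mural cells, the pericytes and smooth muscle cells around vessels, were read from 12 genes that summed to 19630.2 to 21945 in OA and 21056 to 26392 in sham at 4 weeks and 19047 to 24661 in OA and 20442 to 29457 in sham at 12 weeks. Their median log2 fold change was -0.21 at 4 weeks and -0.24 at 12 weeks, with 10 and 9 of the 12 under 0 and none called in limma. Without sham 3 the 12-week median was -0.18. At an unadjusted p under 0.05, 3 were lower at 4 weeks, where 3.82% of all genes were. At 12 weeks 3 were lower and 1 higher, where 6.62% of all genes were lower and 5.75% higher. Notch3, the Notch receptor of mural cells, had -0.22 at 4 weeks, without overlap, and -0.36 at 12 weeks (limma adjusted p = 0.570 and 0.332). Of all genes, 0.693% were lower without overlap at 4 weeks. Pdgfrb, the receptor that recruits pericytes, had -0.21 and -0.27, and Des, an intermediate filament of muscle and pericytes, -0.36 and -0.45. Cspg4 had 0.62 at 12 weeks (limma adjusted p = 0.317). Rgs5 and Myh11, with the most reads, had -0.29 and -0.086 at that time.

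Platelets, which also hold Vwf, were checked with 10 genes, of which 9 were found. Only 1 of them, Gp1bb, was at 0 in every library. Itga2b, the defining integrin of the lineage, had 123 ± 64.6 in OA and 115 ± 30.4 in sham at 4 weeks. At 12 weeks it had 91.6 ± 16.3 in OA and 113 ± 9.16 in sham. At 4 weeks the highest OA value was 238 for Itga2b and 122 for Tubb1, whose OA mean was 32.0. Gp9 had means of 34.7 in OA and 37.2 in sham at 4 weeks and 65.3 and 64.7 at 12 weeks. The part of platelet RNA in the Vwf level was not tested. Pf4, which macrophages can also express, made up most of the sum of 2512 to 3594 in OA and 2572 to 2924 in sham at 4 weeks and 3432 to 4056 in OA and 2949 to 4142 in sham at 12 weeks. Of those tested, 0 of 7 at 4 weeks and 1 of 6 at 12 weeks had an unadjusted p under 0.05, the latter being Itga2b (log2 fold change -0.32). At 12 weeks 6.62% of all genes were lower at this threshold. The 14 macrophage genes summed to 143150.1 to 172888 in OA and 145798 to 151759.5 in sham at 4 weeks and 191777 to 227735 in OA and 158688 to 226554 in sham at 12 weeks, with median log2 fold changes of 0.095 and 0.10 and none at an unadjusted p under 0.05. Without sham 3 the macrophage median at 12 weeks was -0.014. Lyz2 and Csf1r, with the most reads, had log2 fold changes of 0.31 and 0.16 at 12 weeks. Of 12 fibroblast genes 11 were measured, and their sums were 80811 to 121742 in OA and 56477 to 123602 in sham at 4 weeks and 92953 to 122156 in OA and 66719 to 100954 in sham at 12 weeks. Their median log2 fold change was 0.36 and 0.57, with 2 genes higher at 4 weeks and 8 higher and 1 lower at 12 weeks at an unadjusted p under 0.05. Over all genes, 4.1% were higher at 4 weeks, and 5.75% were higher and 6.62% lower at 12 weeks. None of the fibroblast genes was called in limma with all libraries. Without sham 3, the sham library with the highest fibroblast sum at 12 weeks, limma called 5 of the 11. It then called 81 genes over the whole table, and the fibroblast median was 0.70. At 12 weeks Col3a1, Col1a1, Lum and Postn had 0.47, 0.57, 1.23 and 0.84, and Loxl1 0.60 with an adjusted p of 0.00902 in DESeq2 and 0.265 in limma. Skeletal muscle genes, 9 of 12 found, summed to 356 to 661 in OA and 347 to 852 in sham at 4 weeks and 1196 to 1939 in OA and 822 to 1025 in sham at 12 weeks, with Acta1 and Mb at 0.79 and 0.92 at 12 weeks, both called by DESeq2 (adjusted p = 0.00461 and 0.00961) and not by limma (0.265 each). Tnnt3, Ckm and Tnni2 had log2 fold changes of 0.13, 0.65 and 0.55 at 12 weeks and -0.22, 0.35 and -0.17 at 4 weeks. The 4 adipocyte genes summed to 16.5 to 36.7 in OA and 23.9 to 186 in sham at 4 weeks and 20.4 to 37.5 in OA and 18.9 to 30.5 in sham at 12 weeks, and 0 had an unadjusted p under 0.05. Adipoq and Cidec, with the most reads, had log2 fold changes of -0.13 and -0.77 at 4 weeks, and Adipoq -0.012 at 12 weeks. How far these other cell types moved the endothelial levels was not tested.

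**Figure D4:**
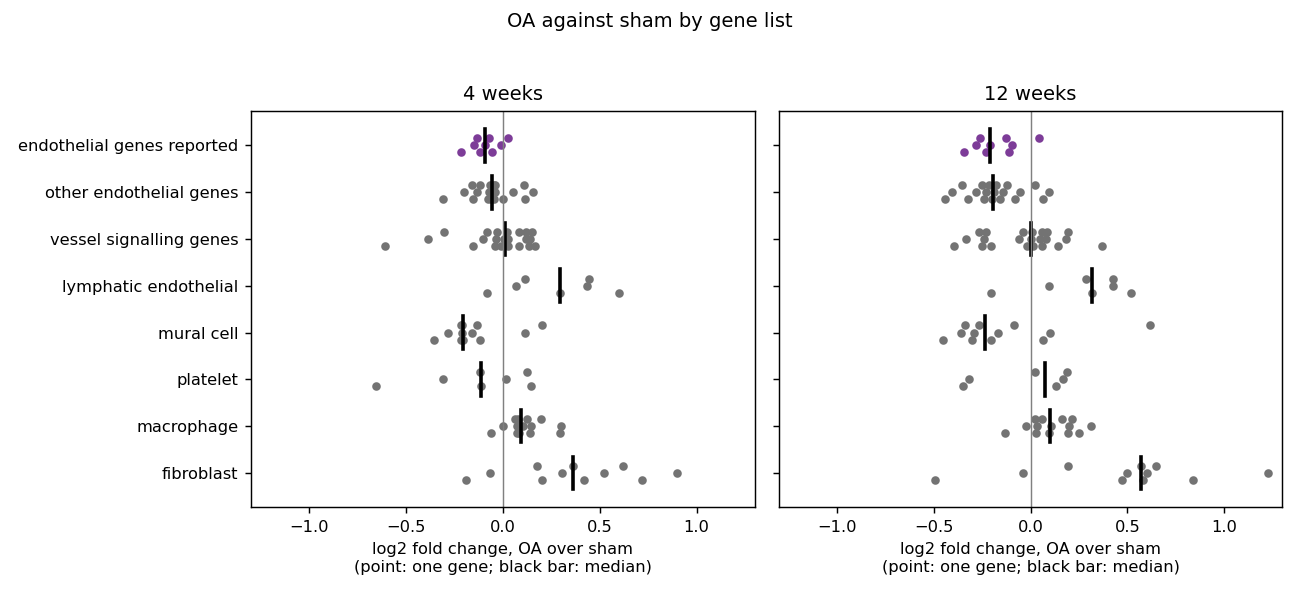
The log2 fold change of OA over sham (x axis) is plotted for each tested gene (point) of the 9 endothelial genes and of the other lists (rows), with a black bar for the median, at 4 and 12 weeks. The 9 endothelial genes (median -0.090 and -0.21) and the mural cell genes (-0.21 and -0.24) have medians to the left of 0 and the fibroblast genes (0.36 and 0.57) to the right, with single genes of each list on the other side.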

How the data were processed

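RNA was measured in 18 libraries, and the labels gave each its surgery and week. The authors checked reads with fastp 0.20.0, aligned them to Rnor_6.0 with STAR 2.7.6a, removed duplicates with Sambamba, counted with featureCounts 2.0.0 and normalized within each time point with DESeq2 1.24.0. Strand handling in the counting is not given in the sources used here, so reads of overlapping genes on opposite strands cannot be told apart. The deposited values are DESeq2-normalized reads (a signal, never negative). In every library 100% of values were whole multiples of 1 read (tolerance 0.02 reads), so whole read counts were recovered. The authors' log2 fold changes, their Wald statistic (a score) and their p-values also stand in the deposited tables and were not used. Symbols came from the tables, and 356 genes had none.

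The main test was limma 3.58.1 (R 4.3.3), with a mean-variance trend, on log2(normalized reads + 1), for genes with a mean of at least 10 and Benjamini-Hochberg adjustment. Fold changes are on this scale. A call needed an adjusted p under 0.05 and a log2 fold change of at least 0.5. The difference between time points used log2 CPM of recovered reads (TMM, prior count 2). edgeR 4.0.16 (quasi-likelihood) and DESeq2 1.42.0 ran on recovered reads. Exact permutation tests were two-sided. Alternatives covered pseudocount, filter, scaling, tool, replicate block and single libraries left out. The main limma, edgeR and DESeq2 fits, also those between time points, were tested on simulated data, with changes larger than those of the endothelial genes. The exact test was checked on constructed, fully separated values. The other steps were not tested in this way. Libraries were pools of different rats and differed beyond counting noise (chi-square per degree of freedom 5.84 to 38.8 over 32 pairs). The genes, lists and tests were chosen with earlier results of these data known. Named in the text are all 9 genes, the 2 most abundant and up to 4 lowest-p genes of each list, and the 10 genes most like Cdh5. Prox1, Gp1bb, Gp9 and Tubb1 were named after their values were seen. The values of the lists and of the likeness to Cdh5 without sham 3 were added after seeing the data.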

Additional observations from a re-analysis of the deposited data

Results flagged for a closer look

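Single libraries that lay apart from the rest of their own group were found in 9 of 76 groups of values. The measure was the gap to the nearest library over the group's range. Chance gives about 1 in 20 for independent groups. The 76 were not independent, since they share libraries and the sum of the 9 endothelial genes repeats those genes. The 9 can therefore not be set against that share. At 12 weeks sham library 3 was apart at the high end for Vwf (19437 normalized reads), for Flt1 (7382), for the sum of the 9 endothelial genes (70802) and for the sum of the other endothelial genes (73716). At 4 weeks sham library 5 was apart at the high end for Kdr (2533) and sham library 4 at the low end for Tek (6144). Sham library 3 of 4 weeks, the one with the fewest reads, was apart at the low end for the sum of vessel signalling genes (36437) and at the high end for the sum of adipocyte genes (186). OA library 3 of 4 weeks was apart at the high end for the sum of lymphatic genes (13479). Their causes were not tested.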

How the results depend on the processing

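None of the 9 endothelial genes was called under any alternative. Of 531 values of single endothelial genes, 495 kept their direction and 36 did not, the latter lying between -0.060 and 0.098. The lowest adjusted p was 0.0913, for Cdh5 at 12 weeks with the replicate block in limma (range 0.0913 to 0.732). Genes called over the whole table at 4 weeks, 0 in the main test, were 1 with TMM, 27 with DESeq2, 1 with the replicate block and 0 to 1 with single libraries left out. At 12 weeks they were 98 with DESeq2 and 0 to 81 with single libraries left out, 81 being without sham 3. Fold changes that changed sign were Tie1 at 4 weeks with TMM (0.041) and Kdr at 4 weeks with edgeR (-0.00011). Of the differences between time points, Flt1 (0.0012) and Emcn (0.0048) did so at a mean of at least 50 reads, and Vwf (-0.024) and Eng (-0.021) with DESeq2. With single libraries left out, log2 fold changes ranged from -0.048 to 0.12 for Kdr and -0.046 to 0.060 for Tie1 at 4 weeks, and from -0.0027 to 0.095 for Tie1 and -0.19 to 0.098 for Vwf at 12 weeks. Differences between time points then ranged from -0.11 to 0.081 for Flt1, -0.029 to 0.27 for Vwf, -0.13 to 0.095 for Emcn, -0.060 to 0.072 for Eng and -0.13 to 0.074 for Esam. The causes were not tested. Same-numbered OA and sham libraries are pools of different rats. Their deviations correlated at -0.13 to 0.080 at 4 weeks and -0.026 to 0.30 at 12 weeks. At 12 weeks OA 3 and sham 3 were each the closest match of the other across the groups. These values do not settle whether a shared number marks a shared step of handling, and the main test left the numbers out. The replicate block changed no other call, and at 12 weeks 4 of the 9 genes had an unadjusted p under 0.05 with it (8.13% of all genes lower) against 1 without. With 4 or 5 libraries a group, the intervals of the endothelial fold changes, not read depth, limit what could be seen.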
